A study of Homo sapiens with 14 samples.

Results

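SR proteins and heterogeneous nuclear ribonucleoproteins (hnRNPs) were followed over time in HepG2, a human liver tumour cell line given miR-124 or a negative control by transfection. Members were the genes whose symbol was SRSF plus a number, TRA2A or TRA2B, or began with HNRNP. The rule gave 32 symbols, of which 31 were protein-coding genes among the 19775 genes measured by a probe set with 1 symbol. They were 10 SR proteins, 2 transformer-2 proteins and 19 hnRNPs. The other symbol, HNRNPD-DT, is a long noncoding RNA with a mean of 5.31 on the log2 scale, below the filter of 6.19, and it was kept out of the counts. The pseudogene HNRNPA3P1 was left out by the rule. SRSF2, SRSF9, HNRNPH2, HNRNPA1L2 and HNRNPCL1 to HNRNPCL4 were read only by probe sets shared with other symbols and were not used here. All 31 members passed the filter, among 13128 genes tested.

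Each transfection was sampled at 4, 8, 16, 24, 32, 72 and 120 h, with 1 one-colour oligonucleotide array per transfection and time, 14 arrays in all. The miR-124 group received the neuronal microRNA miR-124, which shortens the life of messenger RNAs with a matching site. The comparison group received what the labels call a negative control transfection, and both groups are the same cell line. The design asks how the messenger RNA response to miR-124 develops with time.

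SR proteins bind exons through RNA recognition motifs and recruit the splicing machinery through arginine and serine rich tails, whose phosphorylation sets their activity and place in the nucleus. hnRNPs coat newly made transcripts, and many of them repress the exons they bind, so the balance between both families shapes alternative splicing. Several members of both families regulate their own messenger RNA through exons that send it to decay.

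Levels are log2 RMA values of each gene's probe set of highest mean, and a ratio is the log2 value with miR-124 minus that in the negative control at the same time. Levels of different probe sets are not comparable with each other. Pairs of arrays correlated over genes at 0.904 to 0.997. Of 14 hepatocyte and HepG2 marker genes, 13 had a probe set and all 13 lay above the filter, with means of 10.9 to 13.9. At 4 h the 18S ribosomal RNA probe sets averaged 11.1 on the miR-124 array and 8.70 on the negative control array, and the poly-A spikes averaged 8.06 and 6.42. The 3′ minus 5′ signal of ACTB, a measure of RNA quality on the log2 scale, was 0.357 with miR-124 and 0.237 in the negative control at 72 h, and 0.411 and 0.102 at 120 h. At 24 h it was 0.561 with miR-124, the highest of the 14 arrays, and 0.271 in the negative control. For GAPDH it was 0.301 and 0.145 at 72 h, and 0.199 and 0.0311 at 120 h. The labels do not tie the arrays to separate cultures. The p-values therefore cover the spread among these arrays alone, which may be technical, and a single time has no replicate.

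Promoters of 4 members are shown because 3 of these genes fell with time in the negative control (SRSF3, SRSF6 and HNRNPM) and 1 was higher late with miR-124 (SRSF5). Each is the 250 bases before the RefSeq start, 5′ to 3′ on the gene's own strand, GRCh38.p14. SRSF3 lies at chr6:36594112-36594361, SRSF6 at chr20:43457646-43457895, HNRNPM at chr19:8444725-8444974 and SRSF5 at chr14:69766892-69767141, all on the plus strand. Capitals mark matches to the motifs spelled out after the sequences.
SRSF3: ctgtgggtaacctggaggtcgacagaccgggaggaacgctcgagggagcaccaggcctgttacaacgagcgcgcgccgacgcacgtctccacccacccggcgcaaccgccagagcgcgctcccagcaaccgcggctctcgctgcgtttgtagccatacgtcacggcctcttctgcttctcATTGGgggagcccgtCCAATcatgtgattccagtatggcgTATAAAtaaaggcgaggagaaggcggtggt
SRSF6: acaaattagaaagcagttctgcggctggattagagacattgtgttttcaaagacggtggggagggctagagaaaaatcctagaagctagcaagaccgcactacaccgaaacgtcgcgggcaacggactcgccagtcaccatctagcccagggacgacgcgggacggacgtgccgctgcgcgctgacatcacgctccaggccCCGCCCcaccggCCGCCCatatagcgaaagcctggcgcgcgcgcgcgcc
HNRNPM: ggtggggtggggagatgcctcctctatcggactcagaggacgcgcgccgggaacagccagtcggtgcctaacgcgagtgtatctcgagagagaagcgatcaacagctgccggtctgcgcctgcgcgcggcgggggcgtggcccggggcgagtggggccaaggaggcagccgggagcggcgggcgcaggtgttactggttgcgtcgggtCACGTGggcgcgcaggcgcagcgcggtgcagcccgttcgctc
SRSF5: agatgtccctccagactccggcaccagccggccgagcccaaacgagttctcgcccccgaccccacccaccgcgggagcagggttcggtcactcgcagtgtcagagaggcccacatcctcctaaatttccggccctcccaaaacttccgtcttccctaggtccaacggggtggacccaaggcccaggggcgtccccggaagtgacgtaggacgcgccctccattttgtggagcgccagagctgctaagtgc

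The motifs, searched on both strands, were the E-box CACGTG, the CCAAT box (CCAAT or ATTGG), the GC box (GGGCGG or CCGCCC) and the TATA box (TATAAA or TTTATA). SRSF3 held 2 CCAAT boxes, which start 70 and 55 bases before the start, and a TATA box 30 bases before it. SRSF6 held 2 GC boxes, 49 and 37 bases before the start. HNRNPM held 1 E-box, 42 bases before the start, and SRSF5 held none of the 4 motifs. Of the 31 members, 29 had a promoter in the table, all but HNRNPA1 and TRA2A. A GC box was found in 19 of the 29 members (65.5%) and in 42.6% of all 35116 promoters of that length. A CCAAT box was found in 14 members (48.3%) and in 32.0% of all promoters. The E-box was found in 5 members (17.2%) and in 6.34% of all promoters, and the TATA box in 5 members (17.2%) and in 10.7%. The members' windows held a median of 25 CpG dinucleotides, against 11 over all promoters. The set of all promoters was not limited to the genes tested here, whereas all members passed the filter. A match describes letters only.

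The 31 genes stayed close to their negative control partners through 32 h, mostly had lower values with miR-124 at 72 h, and at 120 h more of them stood above the negative control than below it. From 4 to 32 h 0 members were 1.5-fold higher or lower at any time. Of all genes tested, 0.251%, 0.388%, 2.18%, 3.84% and 4.65% were at least 1.5-fold lower at 4, 8, 16, 24 and 32 h, and 0.107%, 0.0229%, 0.457%, 1.36% and 2.48% were at least 1.5-fold higher. The ratio was below 0 in 17, 20, 7, 20 and 24 members at these times, against 56.6%, 43%, 50%, 38.6% and 41.5% of all genes. At 72 h the ratio was below 0 in 27 of 31 members, against 47.7% of all genes, 12 members were at least 1.5-fold lower, against 13.1%, and 0 were that much higher, against 10.4%. The median ratio at 72 h was -0.51 over the members and 0.02 over all genes. Among genes with a mean of at least 9, where 29 members lie, the shares of all genes were 57.4% below 0 and 21.5% at least 1.5-fold lower, with medians of -0.51 for the members and -0.09 for all such genes. At 120 h 9 members were below 0, against 51.4% of all genes, 22 were above, and the median was 0.10 against -0.01. None was 1.5-fold lower (4.75% of all genes) or higher (8.58%) at 120 h. In extracts of whole cultures, fewer cells of a type and less RNA per cell cannot be told apart.

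**Figure D1:**
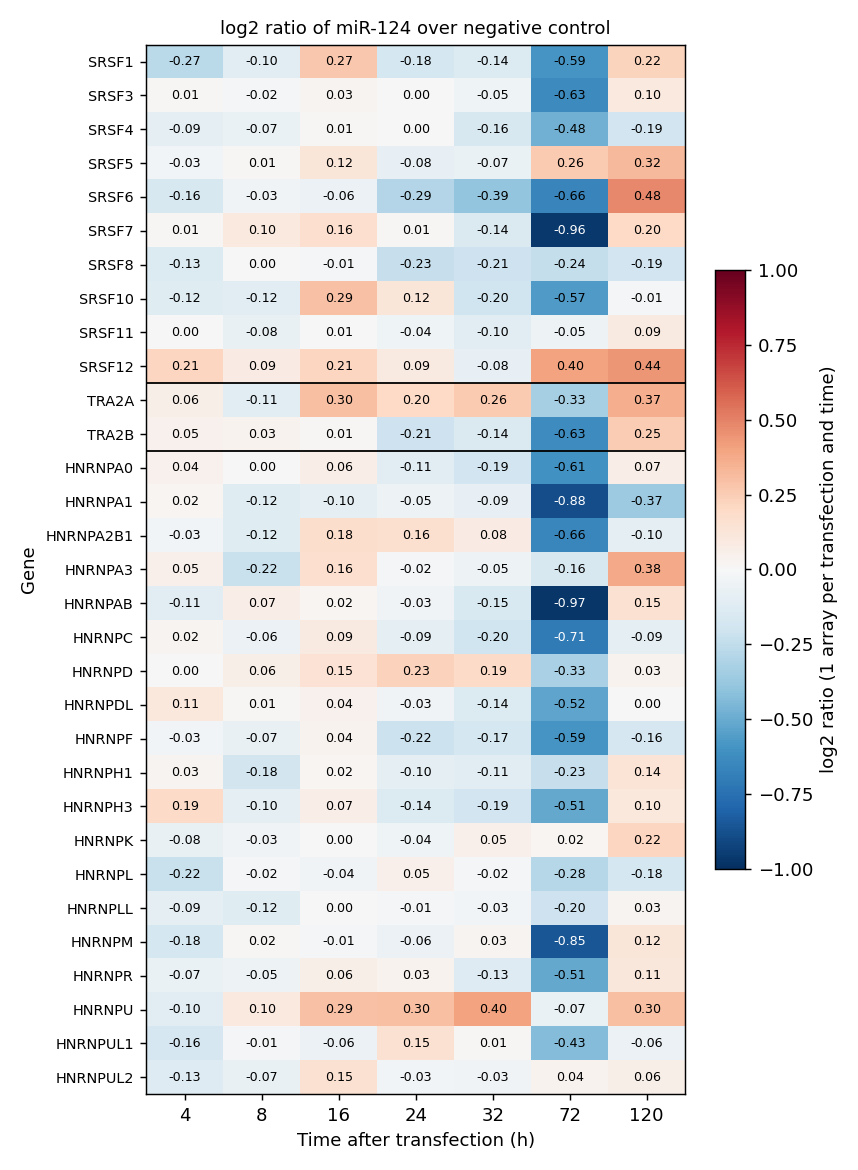
log2 ratio of miR-124 over negative control for each of the 31 genes (down the page) at each of the 7 times (across, h), with 1 array per transfection and time and the value printed in each cell. The column at 72 h holds 27 values below 0, down to -0.97 in HNRNPAB, while the column at 120 h holds 22 values above 0.

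Both transfections took part in the turn between 72 and 120 h. With miR-124, 30 of 31 members were higher at 120 h than at 72 h, against 50.8% of all genes. In the negative control, 26 of 31 were lower at 120 h than at 72 h, against 52.6%, and 5 were higher, against 47.4%. Both a higher value at 120 h with miR-124 and a lower one in the negative control were seen in 25 members, against 28.2% of all genes. The lowest of the 7 miR-124 arrays was the one at 72 h in 27 members (27.5% of all genes), and the lowest of the 7 negative control arrays was the one at 120 h in 24 members (29.5%). Relative to 4 h, the median change with miR-124 was -0.59 at 72 h and -0.32 at 120 h, and in the negative control it was -0.22 and -0.43 at these times. With miR-124, 30 members lay below their 4 h level at 72 h (45% of all genes) and 29 at 120 h (51.6%), and in the negative control 27 did at 72 h (51.2%) and 30 at 120 h (49.7%). The corresponding medians over all genes lay between -0.01 and 0.04.

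SRSF3, the smallest SR protein and an adaptor of messenger RNA export, had 12.63, 12.62, 12.46, 12.40, 12.39, 11.63 and 12.06 with miR-124 at the 7 times in order. Its negative control values were 12.62, 12.64, 12.43, 12.39, 12.44, 12.27 and 11.96. Both courses ran together through 32 h, and at 72 h the miR-124 value was 1.55-fold below its partner. SRSF6, which activates weak splice sites, had 11.11, 11.01, 11.00, 10.69, 10.41, 10.00 and 10.84 with miR-124, against 11.27, 11.04, 11.05, 10.98, 10.80, 10.66 and 10.37 in the negative control. It was below its partner at the first 6 times and above it at 120 h, where the ratio was 0.48. SRSF7, an SR protein with a zinc knuckle, had 11.45, 11.33, 11.87, 11.55, 11.12, 10.45 and 11.09 with miR-124, against 11.44, 11.23, 11.71, 11.54, 11.26, 11.41 and 10.88 in the negative control. Its 72 h ratio of -0.96 was the lowest among the 10 SR proteins.

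SRSF1, the founding member of the family, had ratios of -0.59 at 72 h and 0.22 at 120 h, and SRSF10, a repressor of splicing in its dephosphorylated form, had -0.57 and -0.01. SRSF4, a larger relative of SRSF6, was below 0 at both late times, with -0.48 and -0.19, and so was SRSF8, a retrogene of SRSF2, with -0.24 and -0.19. SRSF11, an SR-related protein that binds U2AF, had -0.05 and 0.09. The other direction was seen in 2 SR genes. SRSF5, another relative of SRSF6, had ratios of 0.26 at 72 h and 0.32 at 120 h after values between -0.08 and 0.12 at the 5 earlier times. SRSF12, a relative of SRSF10, had 6.28, 6.30, 6.50, 6.32, 6.30, 6.71 and 6.72 with miR-124, against 6.06, 6.22, 6.29, 6.22, 6.38, 6.30 and 6.28 in the negative control. Its 2 late miR-124 values and that at 16 h lay above all 7 negative control values, though its mean of 6.35 was just over the filter. The share of all genes with such values was not counted.

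The transformer-2 proteins TRA2A and TRA2B bind exonic enhancers rich in purines and work with SR proteins. TRA2A had 10.21, 10.08, 10.38, 10.24, 10.31, 9.62 and 9.76 with miR-124, against 10.15, 10.18, 10.07, 10.04, 10.05, 9.95 and 9.39 in the negative control. It was above its partner at 16, 24 and 32 h, below it at 72 h and above it again at 120 h. TRA2B had ratios of -0.63 at 72 h and 0.25 at 120 h.

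HNRNPA1, which represses exons by binding silencers, had 11.07, 10.79, 10.95, 10.92, 10.83, 10.02 and 10.64 with miR-124, against 11.05, 10.91, 11.05, 10.97, 10.92, 10.90 and 11.00 in the negative control. Its miR-124 values at 72 and 120 h lay below all 7 negative control values, and so did those at 8 and 32 h. HNRNPA2B1, a close relative that also sorts RNAs for transport, had 12.50, 12.37, 12.68, 12.53, 12.44, 11.65 and 12.04 with miR-124, against 12.53, 12.49, 12.51, 12.37, 12.35, 12.31 and 12.13 in the negative control. HNRNPC, which binds uridine tracts, had 12.07, 11.96, 12.10, 11.94, 11.81, 11.00 and 11.49, against 12.05, 12.02, 12.02, 12.03, 12.00, 11.71 and 11.59. In both genes the 2 late miR-124 values were lower than every negative control value. The share of all genes with such values was not counted.

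HNRNPM, a regulator of splicing and of the response to heat shock, had 11.20, 11.17, 11.29, 11.20, 11.20, 10.00 and 10.46 with miR-124, against 11.38, 11.16, 11.30, 11.26, 11.17, 10.85 and 10.34 in the negative control. Here the negative control values at 72 and 120 h also lay below all its earlier ones, and at 120 h the negative control was the lower of the pair. HNRNPR, a relative of SYNCRIP, had 12.22, 12.24, 12.23, 12.10, 12.05, 11.38 and 11.72 with miR-124, against 12.29, 12.29, 12.18, 12.07, 12.18, 11.90 and 11.61. HNRNPDL, a relative of the AU-rich element binder HNRNPD, had 11.61, 11.42, 11.43, 11.31, 11.23, 10.70 and 11.04 with miR-124, against 11.50, 11.41, 11.38, 11.34, 11.37, 11.22 and 11.03. For both genes the pair differed most at 72 h, with ratios of -0.51 and -0.52, and by at most 0.11 at 120 h.

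HNRNPF and HNRNPH1 bind runs of guanines. HNRNPF had 9.75, 9.72, 9.81, 9.63, 9.59, 9.16 and 9.56 with miR-124, against 9.78, 9.79, 9.77, 9.85, 9.76, 9.74 and 9.72 in the negative control, where it varied little. HNRNPH1 had 12.60, 12.34, 12.48, 12.32, 12.32, 11.97 and 12.21 with miR-124, against 12.57, 12.53, 12.46, 12.42, 12.43, 12.20 and 12.07, with the lowest value at 72 h with miR-124 and at 120 h in the negative control. HNRNPU, a nuclear scaffold protein, had 12.30, 12.29, 12.41, 12.31, 12.26, 12.04 and 12.15 with miR-124, against 12.41, 12.20, 12.12, 12.02, 11.85, 12.10 and 11.85. It was above its partner at 8, 16, 24, 32 and 120 h.

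Among the remaining hnRNPs, HNRNPAB, which binds both RNA and DNA, had the lowest 72 h ratio of all members, -0.97, followed by 0.15 at 120 h. The AU-rich element binder HNRNPA0 had -0.61 and 0.07, HNRNPH3 had -0.51 and 0.10, HNRNPUL1 had -0.43 and -0.06, and HNRNPD had -0.33 and 0.03. HNRNPL, which binds CA repeats, had -0.28 and -0.18, and its relative HNRNPLL had -0.20 and 0.03. HNRNPA3 had -0.16 and 0.38. HNRNPK, a binder of C-rich RNA, and HNRNPUL2 were close to their partners at 72 h, with 0.02 and 0.04, and had 0.22 and 0.06 at 120 h.

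**Figure D2:**
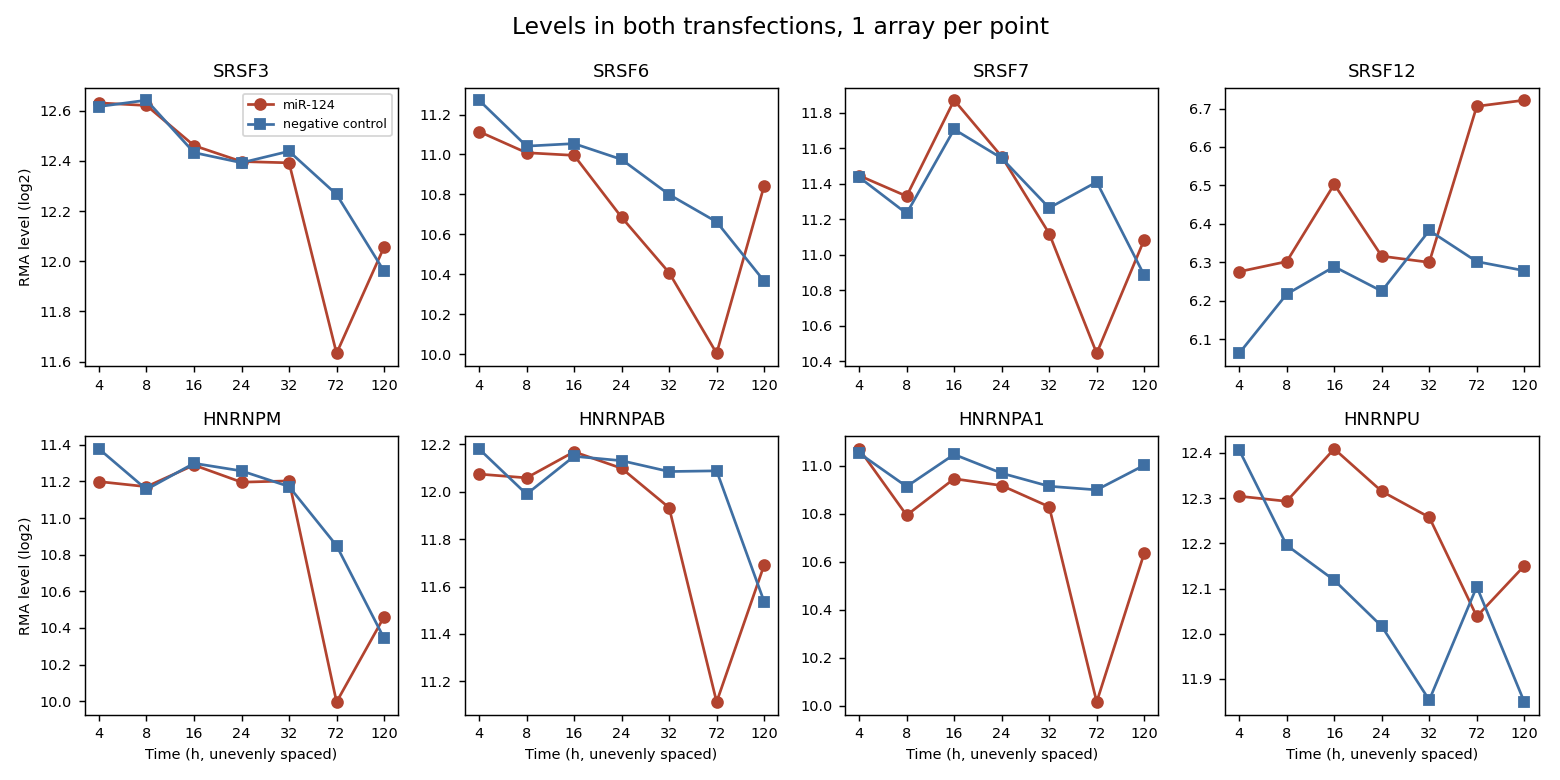
log2 RMA level (vertical axes, which differ between panels and do not start at 0) against time (h, unevenly spaced) of 8 genes, with circles for miR-124 and squares for the negative control, 1 array per point. In every panel but that of SRSF12 the miR-124 line has its lowest point at 72 h, while SRSF12 lies highest with miR-124 at 72 and 120 h and HNRNPU lies above the negative control from 8 to 32 h.

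To set these differences against the spread, the times were grouped into an early (4 and 8 h), a middle (16, 24 and 32 h) and a late (72 and 120 h) window and tested with limma, paired by time, with p-values adjusted over all 13128 genes. In the early window no member passed an adjusted p of 0.05, nor did any gene (0%). At an unadjusted p under 0.05 there were 0 members and 163 genes. The members' median estimate was -0.05, against -0.01 over all genes.

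In the middle window no member passed, where 3.47% of all genes were called higher and 4.36% lower with miR-124. The members' median was -0.01, against 0.03 over all genes, and 2 members had an unadjusted p under 0.05. The estimates farthest from 0 were HNRNPU at 0.33 ± 0.09 (SE, 3 pairs, limma adjusted p = 0.0634), TRA2A at 0.25 ± 0.12 (adjusted p = 0.295) and SRSF6 at -0.25 ± 0.18 (adjusted p = 0.542). The 72 and 120 h pairs enter this fit through the shared spread, and leaving out either gives the same middle fit. In that fit HNRNPU and TRA2A were called higher, 2 of 31 where 8.54% of all genes were.

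In the late window 2 members were higher with miR-124, where 16.5% of all genes were, and 3 were lower, where 12.6% were. SRSF12 was 1.34-fold higher (log2 0.42 ± 0.09, SE, 2 pairs, limma adjusted p = 0.0129) and SRSF5 was 1.23-fold higher (0.29 ± 0.09, adjusted p = 0.037). HNRNPA1 was 1.54-fold lower (-0.62 ± 0.12, adjusted p = 0.00708), HNRNPF 1.30-fold lower (-0.38 ± 0.12, adjusted p = 0.045) and SRSF4 1.26-fold lower (-0.34 ± 0.10, adjusted p = 0.0336). The median over the 31 members was -0.20, against -0.01 over all genes, and 23 members had an estimate below 0, against 52.4% of all genes. HNRNPA1 and SRSF12 were called whichever of the 7 times was left out, and HNRNPF, SRSF4 and SRSF5 in 1 of these 7 fits each. The count was 2 without 4, 8, 24 or 32 h, 3 without 16 h, 4 without 72 h and 21 without 120 h, of which 20 were lower. Without 4, 8, 16, 24 or 32 h, 12.8% to 15.1% of all genes were called higher and 9.02% to 10.8% lower. With the window fitted on its own arrays 0 members were called, where 2.99% of all genes were higher and 1.20% lower. In that fit HNRNPA1 had an adjusted p of 0.121 and SRSF12 one of 0.173 (limma). With the mean of all probe sets HNRNPA1 was not called (-0.38, limma adjusted p = 0.205), SRSF12 lay under the filter and was not tested, and HNRNPF, HNRNPR, SRSF5 and SRSF11 were called. Centred arrays ended the call of SRSF5 (adjusted p = 0.0804), and the trend and robust options that of HNRNPF (adjusted p = 0.0517).

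The change of the effect between windows, late minus middle, was called in no member, where 3.21% of all genes were higher and 1.53% lower. At an unadjusted p under 0.05 there were 5 members and 2559 genes. The estimates farthest from 0 were HNRNPA1 at -0.55 ± 0.16 (SE, limma adjusted p = 0.0999), HNRNPA2B1 at -0.52 ± 0.16 (adjusted p = 0.128) and SRSF7 at -0.39 ± 0.29 (adjusted p = 0.536). Without 120 h, 17 members were called lower in this difference, where 10.2% of all genes were, and without 72 h 1 member, SRSF6, was called higher, where 5.80% were.

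Because the ratios at 72 and 120 h differed in sign for many members, both times were also fitted apart, a choice made after the values were seen. Each is then 1 pair, and the spread comes from the earlier windows. These are the same fits as the late window without 120 h and without 72 h. Over the genes tested, the array median at 72 h was 8.04 with miR-124, the lowest of the 14 arrays, and 8.06 in the negative control. At 120 h it was 8.15 with miR-124, the highest of the 14 arrays, and 8.06 in the negative control. The part of these offsets in the turn between 72 and 120 h was not tested beyond centring. At 72 h 20 members were lower with miR-124, where 19.8% of all genes were, and 1 was higher (SRSF12), where 17.4% were. The 20 were 6 of the 10 SR proteins (SRSF1, SRSF3, SRSF4, SRSF6, SRSF7 and SRSF10), both transformer-2 proteins and 12 of the 19 hnRNPs. The lowest, HNRNPAB, was 1.97-fold lower (log2 -0.97 ± 0.12, SE, limma adjusted p = 0.000377), and SRSF7 was 1.95-fold lower (-0.96 ± 0.13, adjusted p = 0.000591). At 120 h 1 member, HNRNPA1, was lower (log2 -0.37 ± 0.10, limma adjusted p = 0.0378), where 8.68% of all genes were. Its 3 probe sets ran from -0.37, in the chosen one, to 0.61 at 120 h, and their mean gave 0.13 (adjusted p = 0.42). There 3 members were higher, where 14.6% of all genes were, namely SRSF6 (0.48 ± 0.13, adjusted p = 0.034), SRSF12 (0.44 ± 0.13, adjusted p = 0.0375) and TRA2A (0.37 ± 0.11, adjusted p = 0.0447). With arrays centred on their medians, which ran from 8.04 to 8.15 over the genes tested, HNRNPA1 was the 1 member called at 120 h. Of all genes, 11.2% were then called higher and 14.7% lower.

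The ratio was higher at 120 h than at 72 h in all 31 members, while it was lower at 120 h in 50.4% of all genes. The difference was called in 10 members, where 8.07% of all genes were called higher. It was called lower in 0 members, where 2.72% of all genes were. SRSF7 differed by 1.17 ± 0.18 (log2, SE, limma adjusted p = 0.00849), SRSF6 by 1.14 ± 0.19 (adjusted p = 0.0106) and HNRNPAB by 1.13 ± 0.16 (adjusted p = 0.00691). The other 7 were HNRNPM at 0.97, TRA2B at 0.88, SRSF3 at 0.73, TRA2A at 0.70, HNRNPA0 at 0.67, HNRNPR at 0.62 and HNRNPA2B1 at 0.56. The median difference was 0.53 over the members and 0.00 over all genes. With arrays centred on their medians, 6 members were called, where 4.56% of all genes were called higher and 4.845% lower.

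The negative control alone was fitted with a slope per doubling of time from 4 to 120 h over its 7 arrays. It describes the change of the members' messenger RNA in cells given the negative control transfection. Of the members 8 fell, where 5.49% of all genes fell, and 0 rose, where 2.71% did. The slope was below 0 in 30 of 31 members, against 49.3% of all genes, with a median of -0.07 per doubling against 0.00. HNRNPM fell by 0.17 per doubling (SE 0.04, limma adjusted p = 0.0453), which over the whole course is a 1.81-fold decrease. SRSF6 also fell by 0.17 (SE 0.02, adjusted p = 0.0127), a 1.77-fold decrease, and HNRNPR fell by 0.13 (SE 0.03, adjusted p = 0.0276), a 1.55-fold decrease. The other members that fell were SRSF3 (1.53-fold), HNRNPH1 (1.40-fold), HNRNPDL (1.32-fold), HNRNPUL2 (1.32-fold) and HNRNPA2B1 (1.29-fold). SRSF6 was called whichever of the 7 times was left out, and SRSF3 in 5 of these 7 fits. HNRNPR was called in 2 of them, HNRNPM, HNRNPH1, HNRNPDL and HNRNPUL2 in 1 each, and HNRNPA2B1 in 0. The count was 1 without 8 h, 2 without 16, 24 or 120 h, 3 without 4 or 72 h and 7 without 32 h. Without 4, 8, 16 and 24 h in order, 1.58%, 1.16%, 2.45% and 2.095% of all genes fell. Without 32, 72 and 120 h the shares were 5.91%, 3.30% and 2.75%.

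With miR-124, 7 members fell with time, where 8.07% of all genes did, and 0 rose, where 13.7% did. SRSF3 fell by 0.17 per doubling (SE 0.04, limma adjusted p = 0.0312), a 1.80-fold decrease over the course, and HNRNPR fell by 0.15 (SE 0.04, adjusted p = 0.0411), as did HNRNPDL (SE 0.04, adjusted p = 0.0237). The other 4 were TRA2B (1.55-fold), HNRNPH3 (1.54-fold), HNRNPD (1.48-fold) and SRSF8 (1.36-fold). The median slope was -0.09, against 0.00 over all genes. With each of the 7 times left out, HNRNPDL and HNRNPH3 were called in 5 fits, and SRSF3 and HNRNPD in 4. HNRNPR and TRA2B were called in 1 of these fits each, and SRSF8 in 0. The count was 0 without 4 or 8 h, 3 without 16 h, 4 without 24, 32 or 72 h and 8 without 120 h. Of all genes, 2.43% fell without 4 h, 1.32% without 8 h and 3.96% without 16 h. Without 24, 32, 72 and 120 h the shares were 4.74%, 5.53%, 5.06% and 12.0%.

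The difference between both slopes, miR-124 minus negative control, was called in no member, where 6.92% of all genes were higher and 1.67% lower. At an unadjusted p under 0.05 there were 1 member and 3404 genes. HNRNPA1 had the estimate farthest from 0, at -0.12 ± 0.05 per doubling (SE, limma adjusted p = 0.174), followed by HNRNPC at -0.09 ± 0.05 (adjusted p = 0.314) and SRSF7 at -0.08 ± 0.08 (adjusted p = 0.546). Without 120 h, HNRNPH3 and TRA2B were called lower, 2 of 31 where 7.79% of all genes were.

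**Figure D3:**
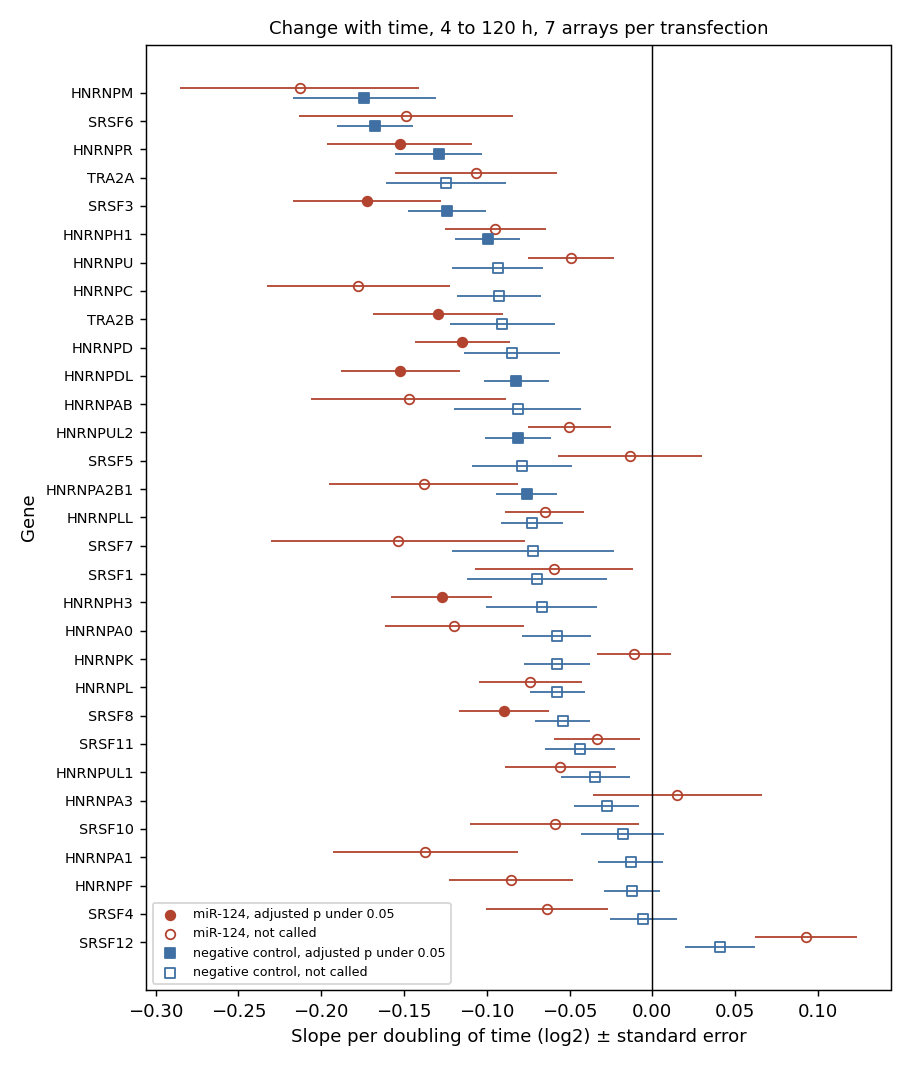
Slope per doubling of time (log2, horizontal axis) ± standard error of each of the 31 genes, with circles for miR-124 above squares for the negative control, 7 arrays each, and filled symbols for an adjusted p under 0.05. All negative control slopes but that of SRSF12 lie below 0, with 8 filled squares, and 7 circles are filled.

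Most genes were read by several probe sets, which bear on other parts of the transcript. Of the 28 members with more than 1 probe set above the filter, 16 had all of them below 0 at 72 h, 2 had all above 0 and 10 had both signs. Over 71 such probe sets that were not the chosen one, 54 were below 0 at 72 h. SRSF1 had 8 probe sets, with ratios from -0.94 to -0.23. The 3 probe sets of SRSF5 ran from 0.19 to 0.31. TRA2A had 3 above the filter, from -0.33 in the chosen one to 1.07, and HNRNPC had 6, from -1.12 to 0.57. Those of SRSF4 ran from -0.48 to 0.26 and those of SRSF11 from -0.05 to 0.74. Which transcript forms these probe sets read was not tested. With the mean of all probe sets of a gene, the late estimate of SRSF4 was 0.20 (limma adjusted p = 0.346), and the 72 h estimate of TRA2A 0.38 (adjusted p = 0.156), both of the opposite sign to the chosen probe set. The slope of HNRNPA2B1 in the negative control was then 0.0013 (adjusted p = 0.978), and the difference between 120 and 72 h of TRA2A was -0.04 (adjusted p = 0.938).

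**Figure D4:**
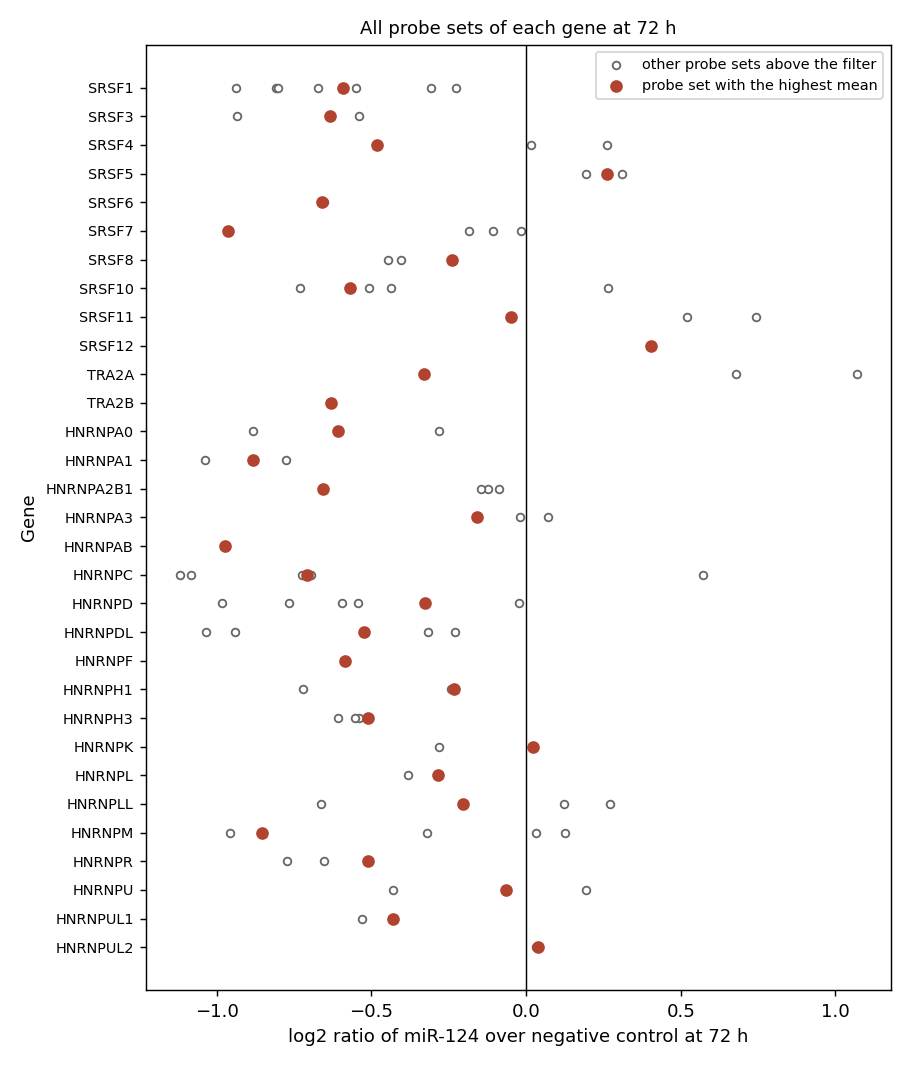
log2 ratio of miR-124 over negative control at 72 h (horizontal axis) of each probe set above the filter, by gene, with filled circles for the probe set with the highest mean and open circles for the others, 1 array per transfection. Filled circles lie below 0 for 27 of 31 genes, and open circles run from -1.12 in HNRNPC to 1.07 in TRA2A.

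Genes that work beside these families were counted from lists chosen with earlier results of these arrays known. Of all genes tested, 16.5% were called higher and 12.6% lower late, and 5.49% fell in the negative control. At 72 h 47.7% of all genes were below 0 and 13.1% were at least 1.5-fold lower. The shares of all genes called at 72 and 120 h alone are given above. In the core spliceosome, 1 of 41 genes was higher and 9 were lower in the late window (median -0.13), and 9 fell in the negative control course (median slope -0.06). At 72 h 36 of the 41 were below 0, 14 were at least 1.5-fold lower, 20 were called lower and 1 higher, and the median was -0.38, against -0.51 for the SR proteins and hnRNPs. SNRPB2, a U2 protein, was lowest late (log2 -1.33 ± 0.31, limma adjusted p = 0.0155), followed by the U1 protein SNRPA (-0.69 ± 0.10, adjusted p = 0.00266). In the negative control SNRPB2 and the helicase DDX46 fell by 0.12 per doubling each. Of 20 SR-related proteins 1 was higher and 1 lower late, namely SCAF8 (0.37 ± 0.08) and THRAP3 (-0.30 ± 0.09), and 7 fell in the negative control, SCAF8 by 0.16 and LUC7L2 by 0.15 per doubling. Their 72 h ratios had a median of -0.21, with 15 of 20 below 0 and 6 called lower, and their 120 h ratios had a median of 0.32, with 8 of 20 called higher.

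SR proteins are phosphorylated by CLK and SRPK kinases. The counts below stand beside shares over all genes of 16.5% higher and 12.6% lower late, and 5.49% that fell in the negative control. Of 10 kinases and import factors 3 were higher and 1 was lower late, with CLK4 at 0.45 ± 0.09 (limma adjusted p = 0.00942) and CLK1 at 0.38 ± 0.11 (adjusted p = 0.031), and DYRK1A fell by 0.11 per doubling in the negative control. At 72 h all 8 hnRNP proteins under other symbols were below 0, against 47.7% of all genes, and their median ratio was -0.37. At that time 3 were at least 1.5-fold lower, against 13.1%. Of these 8, 0 were higher and 1 was lower late. This was PTBP1, the polypyrimidine tract binder and a known miR-124 target in neurons, at -1.29 ± 0.30 (adjusted p = 0.0151), and SYNCRIP was the 1 that fell in the negative control, by 0.23 per doubling (adjusted p = 0.0241). Of 27 other splicing regulators 5 were higher and 3 lower late, with PTBP2, the neuronal relative of PTBP1, at 2.40 ± 0.19 (adjusted p = 0.000245) and MBNL2 at 1.02 ± 0.20 (adjusted p = 0.00744). In the negative control 8 of these 27 fell, among them MATR3 and SFPQ by 0.21 per doubling each. Of 8 genes of nonsense-mediated decay and the exon junction complex, 0 were called late and 4 fell in the negative control, EIF4A3 and SMG8 by 0.11 each.

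Late, 12.6% of all genes were called lower and 16.5% higher, and in the negative control 5.49% fell and 2.71% rose. Markers of dividing cells also differed late and changed in the negative control. All 14 were lower late (median -1.53), CDK1 by 1.81 and KIF11 by 1.72 on the log2 scale, with a median over their ratios of -2.34 at 72 h, against -0.85 at 120 h. In the negative control 9 of the 14 fell with time (median slope -0.14), KIF11 by 0.24 and CCNB1 by 0.20 per doubling. Their part in the course of the SR proteins and hnRNPs was not tested. Of the HepG2 markers, 0 were higher and 3 lower late, with FGA at -1.23 ± 0.12 and FGB at -0.46 ± 0.09, and TTR rose by 0.40 per doubling in the negative control. Among markers of other cells, 4 of 7 blood genes, 6 of 8 fibroblast and endothelial genes and 4 of 7 neuron genes with a probe set lay above the filter. CD3D (1.44 ± 0.25) and PECAM1 (0.46 ± 0.11) were called higher late, and 0 neuron markers were called. The summed log2 level of the 7 neuron genes ran from 47.8 to 49.0 over the miR-124 arrays and from 47.7 to 48.4 over the negative control arrays. The part of these markers in the members' values was not tested.

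**Figure D5:**
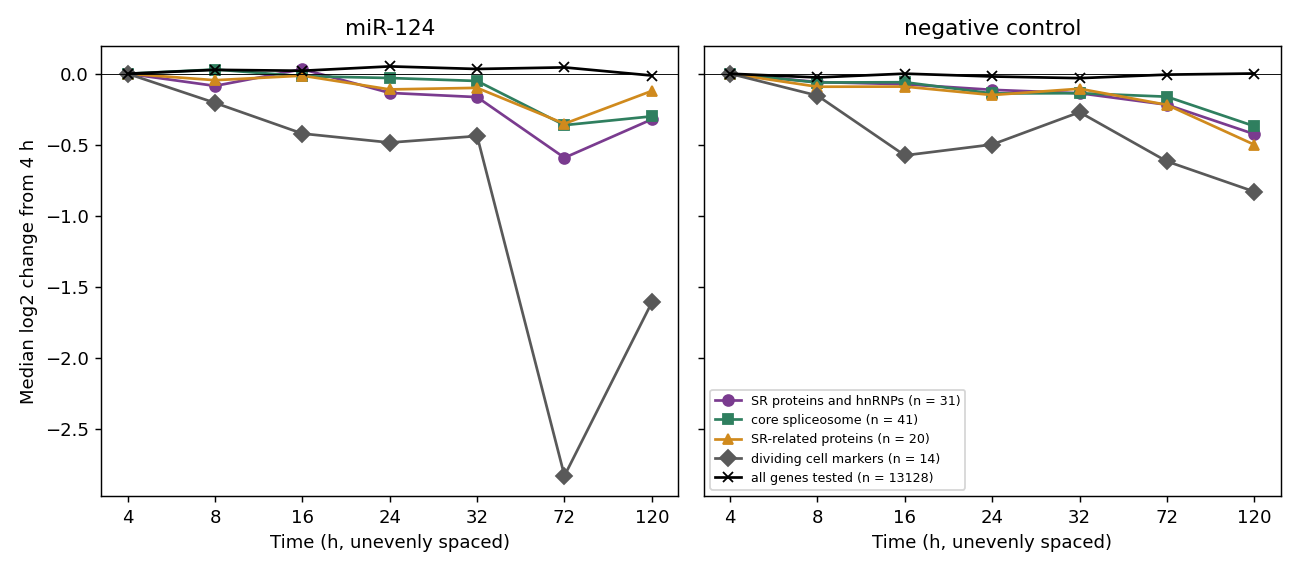
Median log2 change from 4 h (vertical axis) at each time (h, unevenly spaced) of the SR proteins and hnRNPs, 3 other lists and all genes tested, with miR-124 in the left panel and the negative control in the right. With miR-124 the members reach -0.59 at 72 h and -0.32 at 120 h, against -0.22 and -0.43 in the negative control, while all genes stay between -0.03 and 0.05.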

How the data were processed

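Total RNA (about 10 µg per sample, per the labels) was hybridised as biotinylated cRNA to 14 one-colour arrays. Per the submitters' processing notes, the authors used RMA, whose version is not given in the sources used here, and the deposited values are on the log2 scale. Since RMA equalises distributions between arrays, a difference in total messenger RNA per cell is not visible. The platform annotation gave 1 gene symbol to 41091 of 54675 probe sets, several to 1801 and none to 11721, and 62 were controls. Through their gene identifiers, 41037 of the first matched the reference gene table. One probe set per gene, that with the highest mean, gave 19775 genes, and 13128 with a mean above the median of all probe sets, 6.19, were tested. Arrays have no depth, and their number limits the precision.

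Tests used limma 3.58.1 in R 4.3.3 (lmFit and eBayes, two-sided, Benjamini-Hochberg over all genes tested, adjusted p under 0.05). Window effects came from 1 fit with time as a block. The samples pair by labelled time, and deviations from the group means correlated at 0.205 to 0.480 within the 7 pairs. Slopes used log2 of hours. Times stand in for replicates, so standard errors mix change with time and technical spread. The fit of 72 and 120 h apart was added after seeing the data. The code was tested on simulated data. Alternatives were no filter, the mean of all probe sets, arrays centred on their median, other eBayes options, each time left out, no block, each window on its own arrays, hours in place of log2 hours, a late minus early contrast and a 1.5-fold minimum.

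Members and lists were chosen with earlier results of these data known. Array values are given for the 3 members with the largest estimate among those called in each comparison (among all members where none was called) and the 3 with the highest mean. From each list the 2 called genes with the largest late estimate and the 2 with the largest negative control slope are named. Promoters are from RefSeq (GRCh38.p14). Python 3.11.15 with matplotlib 3.10.9 drew the plots.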

Additional observations from a re-analysis of the deposited data

Results flagged for a closer look

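In 13 of the 31 members the 72 h ratio of miR-124 over negative control stood apart from the other 6 ratios of the same gene by Dixon's criterion at the 95% level, and all 13 such values were at 72 h. Chance sets apart about 1 in 20 such groups, and members share the same arrays. Over all 13128 genes tested, 10.7% had a ratio that stood apart at any time, and in 4.59% it was the 72 h ratio as the lowest. The log2 ratios at 72 h were -0.97 for HNRNPAB, -0.96 for SRSF7, -0.88 for HNRNPA1, -0.85 for HNRNPM, -0.71 for HNRNPC, -0.66 for HNRNPA2B1, -0.63 for SRSF3, -0.61 for HNRNPA0, -0.59 for HNRNPF, -0.52 for HNRNPDL, -0.51 for HNRNPR, -0.48 for SRSF4 and -0.33 for HNRNPD. The effect of miR-124 also differed between 120 and 72 h by a test of the difference itself in 10 members (limma, 1 pair at each time). Of all genes, 8.07% were called higher in this difference. Both times were split after the values were seen, and the spread comes from the earlier windows. The effect at 120 h minus that at 72 h was 1.17 for SRSF7, 1.14 for SRSF6, 1.13 for HNRNPAB, 0.97 for HNRNPM, 0.88 for TRA2B, 0.73 for SRSF3, 0.70 for TRA2A, 0.67 for HNRNPA0, 0.62 for HNRNPR and 0.56 for HNRNPA2B1, higher at 120 h in each. Both miR-124 and negative control levels enter these differences. With the mean of all probe sets, the difference of TRA2A changed sign.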

How the results depend on the processing

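Counts are of the 31 members called. In the middle window 1 was called with arrays centred on their median, where 3.18% of all genes were higher and 4.49% lower. Trend and robust eBayes also gave 1 (HNRNPU in both), where 3.07% and 3.98% were. The middle window fitted on its own arrays gave 2, where 8.30% and 8.17% were, and 0 to 2 were called with 1 time left out. Late, 7 were called with centred arrays (6 lower, without SRSF5), where 14.6% of all genes were higher and 15.1% lower. Trend and robust eBayes gave 5 late (without HNRNPF), where 16.2% and 12.5% were. With the mean of all probe sets 4 were called late (HNRNPF, HNRNPR, SRSF5 and SRSF11), where 16.0% and 13.1% were. There 0 were called with the window fitted on its own arrays, 1 with a 1.5-fold minimum, and 2 to 21 with 1 time left out (3 without 16 h). With no replicate block 6 were called late (1 higher, 5 lower), without SRSF5 and SRSF4, and the early, middle, late minus middle and slope difference counts were 0. With no block 16.2% of all genes were higher and 12.7% lower late, and 2.86% and 3.73% in the middle window. For late minus middle these shares were 2.575% and 1.097%, and for the slope difference 4.69% and 0.571%. The late window on its own arrays called 2.99% of all genes higher and 1.20% lower. Late minus middle gave 0 to 17 and the slope difference 0 to 2 with 1 time left out. The negative control slope gave 4 with centred arrays (3.85% of all genes fell) and 15 with hours in place of log2 hours (13.3% of all genes fell). It gave 0 with a late minus early contrast, where 0.015% of all genes fell and 0.053% rose. With a 1.5-fold minimum it gave 4, and the share over all genes was not counted. With 1 time left out it gave 1 to 7 (3 without 4 h or 72 h). The miR-124 slope gave 11 with centred arrays, where 12.8% of all genes fell and 11.2% rose. It gave 0 with hours, where 1.55% fell and 6.99% rose, and 0 to 8 with 1 time left out (3 without 16 h). At 120 h alone centring gave 1, where 11.2% of all genes were higher and 14.7% lower. For 120 minus 72 h it gave 6, where 4.56% were higher and 4.845% lower. With the mean of all probe sets the late value of SRSF4 was 0.20, the 72 h value of TRA2A 0.38, the 120 h value of HNRNPA1 0.13, the 120 minus 72 h value of TRA2A -0.044 and the negative control slope of HNRNPA2B1 0.0013, each of opposite sign. The cause was not tested. The early window gave 0 under every alternative run. Single pairs, RMA scaling and probe set choice limit these values.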
